A study of Mus musculus with 4 samples.

Results

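The genes described here encode subunits of the NMDA receptor (Grin1, Grin2a, Grin2b, Grin2c, Grin2d and Grin3a) and scaffold proteins that hold it at the synapse (Dlg2, Dlg4, Shank3 and Homer1). They were taken by name, and all 10 were found among the 46946 genes of the deposited count table. The table holds 4 untreated mouse tumours of 1 group, labelled PDGFB K27M, in which neural stem cells carrying PDGF and the K27M mutation of histone H3 gave rise to the tumour. The text for the whole series instead speaks of injected DIPG cells with mutant H3.3, and the table does not settle which holds. No normal brain, cultured cells or tumour with wild-type histone were analysed here, so levels are given per tumour and no contrast between conditions is made. Column names of the table (T14, T10, T8 and TUN) serve as library names, and sets of 4 values keep that order. The libraries held 23194257, 24369339, 24155724 and 21664889 counts.

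NMDA receptors are glutamate-gated channels that let calcium in only when glutamate and a co-agonist bind while the membrane is depolarised. Each channel needs the Grin1 subunit, which binds the co-agonist glycine or D-serine, together with Grin2 subunits, which bind glutamate and set the kinetics of the channel. Grin3 subunits lower calcium entry and magnesium block. Below the membrane, the tails of Grin2 subunits bind scaffolds of the Dlg family, which connect through Shank proteins to Homer proteins and metabotropic glutamate receptors. In the rodent brain Grin2b and Grin2d are prominent early, Grin2a rises after birth, and Grin2c is known from cerebellar granule cells. Oligodendrocyte precursors also receive synapses from neurons and carry NMDA receptors.

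The genes ranged from steep differences between tumours to almost none. Grin2c, Grin2a, Grin2b, Grin1 and Dlg2 varied between tumours more than genes of like abundance, whereas Grin2d, Grin3a, Dlg4, Shank3 and Homer1 did not pass that test. All 5 variable genes had their highest values in T14 and T10. The test was the goodness of fit of an intercept-only edgeR model over 14266 genes with Benjamini-Hochberg adjustment, in which 619 genes, or 4.34%, passed an adjusted p of 0.05. Genes that passed with T14 and T10 as the highest libraries were 566, or 3.97% of all tested. They made up 91.4% of the genes that passed, so this order was common to most variable genes and is not particular to the 10. As dispersion outliers in DESeq2, which called 0.547% of genes, Grin2c was the only one of the 10. The labels do not say that the tumours came from separate animals, so these p-values measure the spread between the samples only.

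**Figure D1:**
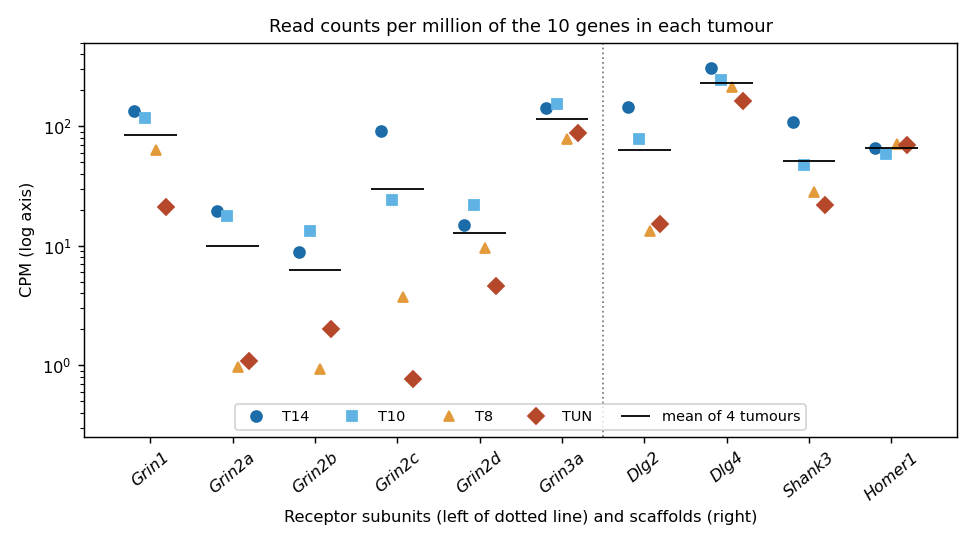
CPM (counts scaled to library size, log axis) of the 10 genes in each of the 4 tumours, with receptor subunits left of the dotted line, scaffolds right of it, and a black bar at the mean. Grin2c runs from 91.2 CPM in T14 to 0.759 in TUN, while Homer1 keeps between 58.9 and 71.3 CPM.

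Upstream sequence is shown for the subunit that every receptor needs (Grin1), for the gene with the widest span (Grin2c) and for the one with the narrowest (Homer1), so that the region before each start can be seen beside the levels. Windows were matched for 7 of the 10 genes in the table of RefSeq sequences used here (GRCm38.p6, the build that mm10 corresponds to). In all 3 the start shown coincides with the gene boundary in the deposited table. Each line gives the 250 bases before the start, 5′ to 3′ on the strand of the gene, with 2 motifs in capitals on either strand: GGGCGG, known as the GC box of Sp factors, and TGACG, the core of a cAMP response element.
Grin1, chr2:25319188-25319437, minus strand: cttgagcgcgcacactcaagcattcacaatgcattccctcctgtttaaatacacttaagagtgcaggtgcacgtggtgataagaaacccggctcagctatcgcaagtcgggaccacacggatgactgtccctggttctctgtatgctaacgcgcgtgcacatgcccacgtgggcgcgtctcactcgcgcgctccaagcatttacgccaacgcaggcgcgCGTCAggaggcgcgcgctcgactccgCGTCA
Grin2c, chr11:115267244-115267493, minus strand: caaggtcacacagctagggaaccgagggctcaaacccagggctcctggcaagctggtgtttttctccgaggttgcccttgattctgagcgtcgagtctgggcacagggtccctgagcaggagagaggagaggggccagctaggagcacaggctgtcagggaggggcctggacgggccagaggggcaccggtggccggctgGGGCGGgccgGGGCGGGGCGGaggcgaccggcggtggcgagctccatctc
Homer1, chr13:93303507-93303756, plus strand: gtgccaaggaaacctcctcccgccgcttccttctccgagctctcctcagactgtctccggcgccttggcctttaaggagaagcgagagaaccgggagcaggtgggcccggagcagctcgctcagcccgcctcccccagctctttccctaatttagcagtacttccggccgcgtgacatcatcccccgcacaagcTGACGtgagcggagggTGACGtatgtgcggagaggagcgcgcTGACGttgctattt
The Grin2c window held 3 GC boxes, of which the last pair overlaps by 1 base, and no TGACG. The Homer1 window shown held TGACG 3 times and that of Grin1 held it 2 times, with no GC box in either. A second annotated start of Homer1, with the window chr13:93307784-93308033, held neither motif and was 46.8% G or C. Among 32851 such windows of the genome, 32.7% held a GC box and 17.8% held TGACG. The full element TGACGTCA, found in 1.55% of windows, and TCAGCACC, part of the RE1 site of the repressor REST, found in 1.32%, were absent from these 3. The windows were 58.8% (Grin1), 68.8% (Grin2c) and 62.4% (Homer1) G or C, against a median of 52.4% over all windows. Of the other matched genes, whose windows are not printed, Shank3 held 4 GC boxes and no TGACG. Grin2d held neither motif, and neither did Dlg2 in its 3 windows. Dlg4 held 1 GC box and 1 TGACG, both in 1 of its 3 windows. These matches describe letters in a window and not binding.

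Among the receptor subunits, Grin1 (ENSMUSG00000026959.13, chromosome 2, 25291181 to 25319187 in mm10, as for all positions here) stood at 134 (T14), 117 (T10), 63.1 (T8) and 21.1 (TUN) CPM. The first pair lay close together, T8 took a middle place and TUN was low by itself. Its highest-to-lowest ratio was 6.35 and its adjusted p in edgeR was 0.0177. Without TUN the adjusted p was 0.999939 and the call was gone, and with a common dispersion for all genes it was 0.115. Over all settings it ranged between 0.0139 and 0.999939. An antisense gene, Grin1os, shares 1307 exon bases with Grin1. It was assigned between 2 and 21 counts per library, and the kit does not mark strand, so reads of the pair cannot be told apart.

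Grin2c (ENSMUSG00000020734.13, chromosome 11, 115249169 to 115267243), the granule cell subunit, had 91.2 (T14), 24.1 (T10), 3.73 (T8) and 0.759 (TUN) CPM. No 2 tumours were close, and each step down was at least 3.78-fold. The TUN value rests on 17 counts, with an exact 95% Poisson interval of 0.442 to 1.22 CPM that covers counting error only. The ratio of T14 to TUN was 120.2, and 0.0561% of genes tested spanned more. The filter before the test left out genes with too few counts in any tumour, and some of these spanned more than Grin2c. The untested Cbln3 and Dao, for example, spanned 10.7 and 6.95 log2 units, against 6.76 for Grin2c. The adjusted p in edgeR was 6.93e-13 and reached at most 0.00096 when any tumour was left out or the settings were changed.

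Grin2a (ENSMUSG00000059003.12, chromosome 16, 9567898 to 9995560), the subunit of mature synapses, formed 2 levels instead of a gradient. It stood at 19.6 CPM in T14 and 17.8 in T10, and at 0.964 in T8 and 1.07 in TUN. The low values rest on 23 and 24 counts, and their 95% Poisson intervals, 0.611 to 1.45 and 0.687 to 1.59 CPM, overlap. Its adjusted p in edgeR was 6.25e-05, and no more than 0.00337 under any setting.

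Grin2b (ENSMUSG00000030209.14, chromosome 6, 135713233 to 136173511), the subunit prominent in the young forebrain, had 8.79 (T14), 13.3 (T10), 0.922 (T8) and 2.01 (TUN) CPM. T10 was the highest here and T8 the lowest, and the 95% Poisson intervals of T8 (0.578 to 1.40 CPM) and TUN (1.47 to 2.69 CPM) do not meet. The adjusted p in edgeR was 0.0238. This call was lost without T10 (0.193) and without T8 (0.365), and also without a filter on low counts (0.147) or with one at a mean CPM of 1 (0.101). Its lowest value over the settings was 0.000507.

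Grin2d (ENSMUSG00000002771.10, chromosome 7, 45831883 to 45870928), known from the brainstem and interneurons, stood at 15.0 (T14), 21.8 (T10), 9.47 (T8) and 4.60 (TUN) CPM. The order followed that of Grin1 except that T10 was above T14. The 4.74-fold range did not pass the test (edgeR adjusted p = 0.909). In simulated data with 1 changed library the test recovered 20% of 4-fold and 0% of 2-fold changes. Those genes were drawn at random and Grin2d differed in more than 1 library, so these rates are not a recovery rate for Grin2d.

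Grin3a (ENSMUSG00000039579.15, chromosome 4, 49661611 to 49845744), the subunit that reduces calcium entry, was high in every tumour, at 143 (T14), 154 (T10), 77.8 (T8) and 86.8 (TUN) CPM. T14 and T10 were again above the others, but by no more than 1.98-fold, and 29.2% of all genes tested spanned more. Its paralog Grin3b stayed at 0.932, 0.651, 0.293 and 0.268 CPM in the same order, on 6 to 21 counts, too few for the test.

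The mix of Grin2 subunits differed between the tumours in level and in kind. RPKM are counts scaled to library size and merged exon length, which allows a rough comparison between genes. Summed over Grin2a to Grin2d they came to 22.1 (T14), 10.04 (T10), 2.45 (T8) and 1.08 (TUN). In T14, Grin2c made up 81.9% of this sum and Grin2d 11.6%. In T10 the shares of these genes were 47.8% and 37.0%. Grin2d led in T8, with 66.0% against 30.3% for Grin2c, and in TUN, with 72.9% against 14%. By RPKM, Grin2a and Grin2b were minor in every tumour, between 2.20% and 9.91% for Grin2a and between 1.52% and 7.52% for Grin2b. These shares depend on length, as merged exons were 17933 (Grin2a) and 24842 bases (Grin2b) against 5037 (Grin2c) and 5862 (Grin2d). By CPM, Grin2b (2.01) and Grin2a (1.07) were above Grin2c (0.759) in TUN, though below it in the other tumours. The TUN shares rest on 17 to 103 counts per gene.

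**Figure D2:**
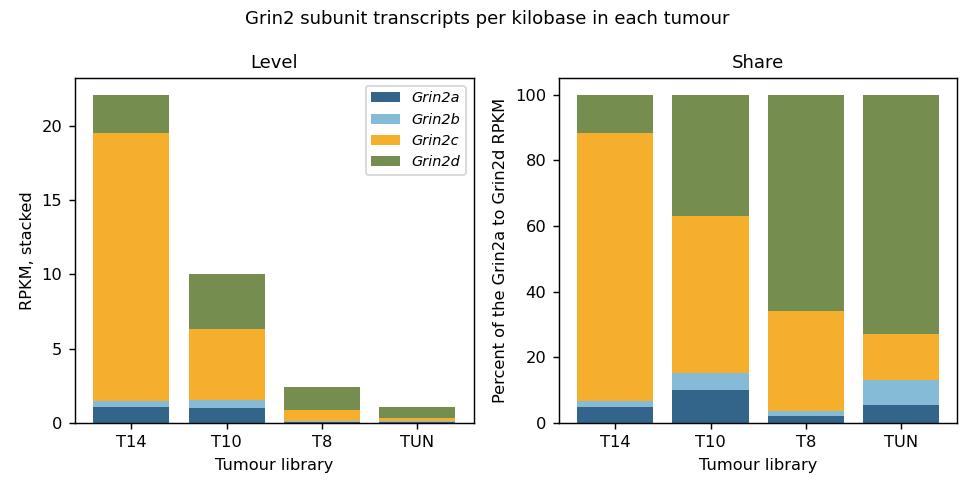
RPKM of the 4 Grin2 genes stacked per tumour (left) and as a percentage of their sum (right). Grin2c takes 81.9% of the sum in T14 and 14% in TUN, where Grin2d takes 72.9%.

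Ratios on the scale log2(RPKM + 0.1) put these shifts beside each other. Grin2c exceeded Grin2b by 5.33 (T14), 2.95 (T10), 2.62 (T8) and 0.47 (TUN) log2 units. In T8 and TUN the Grin2b RPKM (0.0371 and 0.0809) were below the added 0.1, which lowers those ratios most. Without it the ratio in T8 would lie above that in T10. Grin2c and Grin2b had 0.740 and 0.0371 RPKM in T8, against 4.79 and 0.534 in T10. Grin2d exceeded Grin2b by 2.77 ± 0.60 (SD, n = 4), a mean that was 1.27 with a pseudocount of 1 and 1.46 without length correction. The added 0.1 also narrows this SD, as Grin2d had 1.62 RPKM in T8 against 0.0371 for Grin2b. Grin2a exceeded Grin2b by 1.40 in T14, 0.79 in T10 and 0.17 in T8, and was 0.18 below it in TUN, a log2 ratio of -0.18. The T8 and TUN values of both genes rest on 22 to 45 counts, with RPKM below the added 0.1. The 95% Poisson intervals of the pair overlap in each of these tumours, so T8 and TUN do not set the genes apart. Grin1 stood -0.67 log2 units from the sum of the Grin2 genes in T14 and 0.27, 1.37 and 0.95 above it in T10, T8 and TUN. By RPKM the shared subunit was thus below the sum of its partners in T14 and above it in the 3 other libraries. This depends on the lengths used, which are merged exons and not transcripts. The mean log2 ratio was 0.48, and 0.99 without length correction. Grin3a and Grin1 were within 0.25 log2 units of each other in T14, T10 and T8 (log2 ratios of -0.25, 0.05 and -0.04), whereas in TUN Grin3a was 1.66 above. A two-sided exact sign-flip test over 4 tumours cannot go below p = 0.125, so none of these ratios was tested.

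Among the scaffolds, Dlg4 (ENSMUSG00000020886.16, chromosome 11, 70017085 to 70045532), the main scaffold of excitatory synapses, was the most abundant of all 10 genes by CPM and by RPKM. It stood at 307 (T14), 243 (T10), 214 (T8) and 163 (TUN) CPM, a gradual order with no gap between libraries. The range was 1.88-fold and did not pass the test (edgeR adjusted p = 0.999996).

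Dlg2 (ENSMUSG00000052572.15, chromosome 7, 91090706 to 92447003), a paralog of Dlg4 that also binds Grin2 tails, behaved otherwise, with 146 (T14), 78.0 (T10), 13.4 (T8) and 15.1 (TUN) CPM. T8 and TUN were alike, and T14 and T10 were several times higher. The range was 10.9-fold (edgeR adjusted p = 4.2e-06, at most 0.00376 under any setting). Dlg4 exceeded Dlg2 by 2.12 log2 RPKM units in T14 and 2.68 in T10, and by 4.95 in T8 and 4.39 in TUN.

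Shank3 (ENSMUSG00000022623.15, chromosome 15, 89499623 to 89560261), which links Dlg complexes to Homer and actin, had 108 (T14), 47.6 (T10), 27.9 (T8) and 21.9 (TUN) CPM. T14 stood apart from the rest. The 4.95-fold range missed the threshold (edgeR adjusted p = 0.0631, and 0.0631 to 0.999985 over the settings). Gm15609 overlaps 271 exon bases of Shank3 on the opposite strand and was assigned 3 to 19 counts per library.

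Homer1 (ENSMUSG00000007617.17, chromosome 13, 93303757 to 93404129), which ties Shank to metabotropic glutamate receptors, was the most even, at 65.2 (T14), 58.9 (T10), 71.3 (T8) and 69.6 (TUN) CPM. It was also the only one of the 10 that was not highest in T14 or T10. Its range was 1.21-fold, and 87.8% of all genes tested spanned more. Gene counts do not separate the short, activity-induced form of Homer1 from the long scaffold forms. Shank3 stood 0.96 log2 RPKM units above Homer1 in T14, and at -0.07, -1.09 and -1.39 from it in T10, T8 and TUN.

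**Figure D3:**
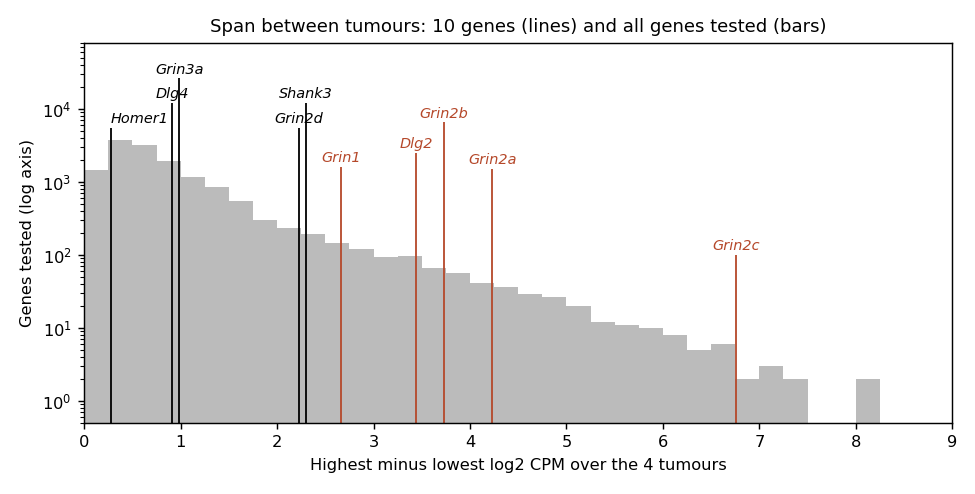
Number of genes tested (bars, log axis) by the difference between the highest and lowest log2 CPM over the 4 tumours, with the 10 genes as lines, red where they passed the goodness of fit and black where they did not. Homer1 lies at 0.27 and Grin2c at 6.76, and the median of all genes tested is 0.65.

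By mean RPKM over the 4 tumours, the order of levels was led by Dlg4 at 46.5 ± 12.1 (SD, n = 4), followed by Grin3a at 9.40 ± 3.15 and Grin1 at 8.65 ± 5.33. Homer1 (6.31 ± 0.524), Dlg2 (6.10 ± 6.08), Grin2c (5.95 ± 8.37) and Shank3 (5.78 ± 4.44) came next. Grin2d (2.17 ± 1.26), Grin2a (0.55 ± 0.572) and Grin2b (0.251 ± 0.235) were lowest. From Grin3a to Grin2d, and likewise from Grin2a to Grin2b, neighbours in this order differed by less than the larger of their SDs, whereas Dlg4 stood above Grin3a by more than both SDs together. The order differed between tumours. In T14, Grin2c (18.1 RPKM), Dlg2 (14.1), Grin1 (13.8) and Shank3 (12.2) all exceeded Grin3a (11.6). Without T14 the mean was 1.89 RPKM for Grin2c, 3.43 for Dlg2 and 3.65 for Shank3, and without T10 it was 0.157 for Grin2b. Receptor subunits had a median span of 3.20 log2 units and scaffolds one of 1.61. Over all 10 genes it was 2.48, against 0.65 over all genes tested. A ratio of highest to lowest above 4 was found in 7 of the 10, against 8.85% of genes tested.

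Most markers of neurons moved with these differences. The CPM of 17 neuron markers, led by Snap25 and Eno2, summed to 4804 (T14), 4388 (T10), 692 (T8) and 527 (TUN), and 15 of the 17 passed the goodness of fit. The 2 that did not pass were Syn1, at 173 (T14), 180 (T10), 96.8 (T8) and 70.3 (TUN) CPM, and Tubb3. Tubb3 went otherwise at 111 (T14), 217 (T10), 77.6 (T8) and 175 (TUN) CPM, with TUN above T14. Markers of cerebellar granule cells, led by Cbln3 and Zic1, summed to 2572, 542, 121 and 132 CPM, and 5 of the 6 tested passed. The other 4 of the 10 listed, Cbln3 among them, were left out by the count filter. Purkinje cell markers, led by Itpr1 and Car8, summed to 4274, 624, 353 and 264 CPM. Of the 6 listed, 2 were left out by the filter, and all 4 tested passed. Of these 4, 3 had T14 and T10 as the highest libraries, while Car8 was at 713 (T14), 117 (T10), 222 (T8) and 147 (TUN) CPM, with T10 the lowest. No marker in these 3 lists was at 0 in any library. The part of neurons in the receptor and scaffold values was not tested, and in bulk RNA fewer cells of a type and less RNA per cell cannot be told apart.

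Markers of other cell types moved in part. Astrocyte markers (Slc1a3 and Slc1a2 highest) summed to 7982, 5096, 2435 and 2361 CPM with 7 of 12 called, and mature oligodendrocyte markers (Mbp highest) to 4326, 5737, 1525 and 1589 CPM with 8 of 12 called. Their part in the values of the 10 genes was not tested either. Of 11 oligodendrocyte precursor markers, led by Olig1 and Ptprz1, 0 were called, and their summed CPM was 9438, 10879, 15186 and 12337. The most abundant genes weigh most in that sum, and Neu4 went otherwise at 13.3, 24.3, 2.93 and 5.31 CPM. Of 8 microglia markers (C1qa highest, summed CPM 592 to 809) 0 were called in edgeR, and likewise 0 of 10 mitosis markers (Top2a and Mki67 highest). With 4.34% of all genes tested called, 0 calls would be common in lists this short. Summed CPM of the mitosis markers ran the other way from the neuron markers, at 817 (T14), 834 (T10), 1455 (T8) and 1890 (TUN), and all 10 were highest in TUN. At an unadjusted p under 0.05 there was 1 precursor marker, 0 microglia markers and 2 mitosis markers, and DESeq2 marked 0 in each of these lists. Of 6 forebrain excitatory neuron markers, among them Neurod2, 4 could be tested and 1 was called. Emx1, of that list, was at 0 in some libraries.

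**Figure D4:**
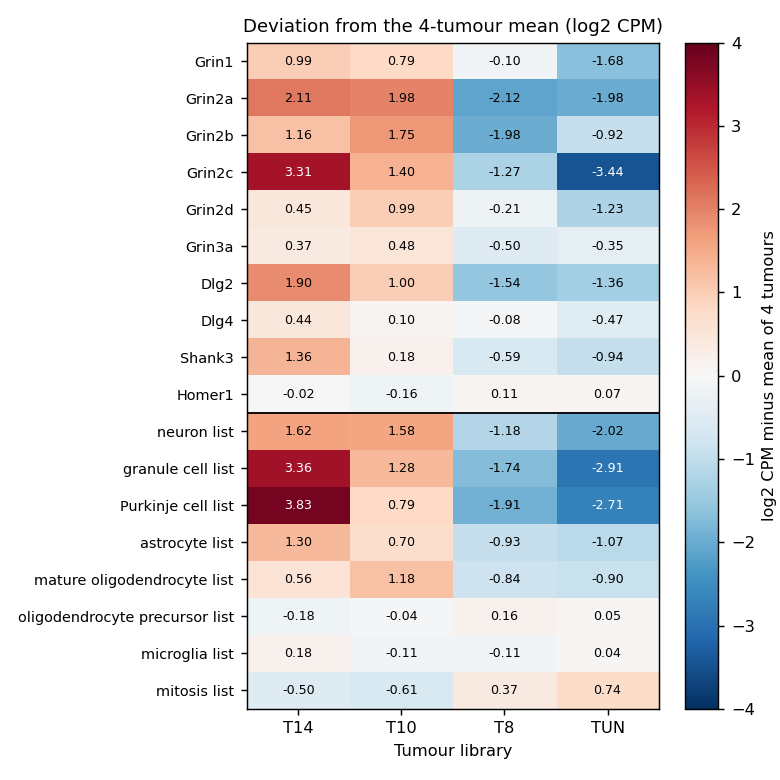
Deviation of log2 CPM from the 4-tumour mean, for each of the 10 genes (top) and averaged over marker lists (bottom), with columns for the tumour libraries. The neuron list runs from 1.62 in T14 to -2.02 in TUN, Grin2a from 2.11 to -1.98, and Homer1 keeps between -0.16 and 0.11.

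The genes differed in how closely they kept to the neuron markers. The mean log2 CPM of the 17 markers differed by 3.64 between T14 and TUN. Against that mean, the difference of Dlg2 moved by 1.23 log2 units over the 4 tumours and that of Grin2a by 1.42, the smallest of the 10. Grin1 (1.87) and Grin2b (1.89) were next. The difference of Homer1 moved by 3.83, that of Grin2c by 3.12, that of Dlg4 by 3.02 and that of Grin3a by 2.92. For Homer1 it was -1.52 (T14), -1.62 (T10), 1.42 (T8) and 2.21 (TUN). Grin2c went beyond the neuron markers, with differences of -1.04 (T14), -2.90 (T10), -2.81 (T8) and -4.15 (TUN). Grin1 was nearer to the neuron mean in TUN (0.50 above) than in T8 (1.24 above), and was below it in T14 (-0.48) and T10 (-0.62). Only neuron markers served as the reference, so closeness to them does not set neurons apart from other cell types. The astrocyte list deviated from its own mean by 1.30 (T14), 0.70 (T10), -0.93 (T8) and -1.07 (TUN). For the mature oligodendrocyte list these were 0.56, 1.18, -0.84 and -0.90.

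The genes with the most similar profiles were sought by the Euclidean distance between log2 CPM values centred on the 4-tumour mean, over 14265 candidates. Among the nearest to Grin2c were Pvalb (distance 0.57), which encodes parvalbumin, and the potassium channel gene Kcng4 (0.58). Grin1 was nearest to St8sia3 (0.25), Lrrc75b (0.29) and Otos (0.33), and Grin2a to Slc35f3 (0.29), Plin4 (0.37) and Nell1 (0.39). Grin2b had Hs3st5 (0.24), Aldh1a2 (0.40) and Shisa9 (0.45) as neighbours, and Grin2d had Atp8a2 (0.19), Mycbp2 (0.20) and the potassium channel gene Kcnh2 (0.20). For Dlg2 these were Slc4a4 (0.15), the bicarbonate transporter gene of astrocytes, Daam2 (0.16) and Slc16a11 (0.18). Shank3 was closest to Gfap (0.16), the astrocyte filament gene, Prrt1 (0.17) and Psd2 (0.19). Distances were small for the genes with narrow spans, at 0.03 to 0.05 for Grin3a (Pde4a, Tspyl2 and Chst15), 0.05 for Dlg4 (Plcl2, Ccl5 and Alas1) and 0.01 to 0.02 for Homer1 (Cuta, Wrb and Cd302). Within the 10 genes the closest pair was Grin3a and Dlg4 (0.59), and the most distant was Grin2c and Homer1 (5.27). These distances over 4 libraries are descriptions with no test.

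Beyond these 10 genes, a list of 40 other NMDA receptor, scaffold and postsynaptic signalling genes was examined in the same way. Of 37 tested, 9 passed the goodness of fit in edgeR and 28 did not, beside 4.34% of all genes tested. All 9 were highest in T14 and T10, like 91.4% of all genes that passed. The median span was 1.41 log2 units, beside 0.65 over all genes tested. Among the called genes were Nos1, Shank1, Homer3, Lin7a, Camk2a, Cnksr2, Dlgap2 and Begain. The 3 genes that could not be tested were Grin3b, Actn2 and Dao.

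Paralogs within a scaffold family differed. Shank1 stood at 137, 70.4, 14.3 and 8.80 CPM in T14, T10, T8 and TUN (edgeR adjusted p = 8.4e-07), while Shank2, at 116, 52.6, 32.8 and 28.2 CPM, did not pass, like Shank3. Homer3, known from Purkinje cells, was at 139 CPM in T14 alone and at 27.8, 24.2 and 22.1 in the others (edgeR adjusted p = 0.00103), whereas Homer2 kept between 30.4 and 45.7 CPM. Dlg1 (69.5 to 134 CPM) and Dlg3 (58.7 to 107 CPM) did not pass and resembled Dlg4 more than Dlg2 in range, at 1.93-fold and 1.83-fold.

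The most abundant genes of the list per length did not pass the test. The kinase gene Fyn, whose product phosphorylates Grin2 subunits, had a mean of 146 ± 37.5 RPKM (SD, n = 4). Camk2b, a subunit of the calcium-activated kinase of the synapse, had 52.0 ± 6.68 RPKM, and Slc1a4, an amino acid transporter gene, had 47.1 ± 10.8. Camk2a, the partner of Camk2b in mature excitatory neurons, was at 65.6, 46.0, 5.99 and 20.3 CPM (edgeR adjusted p = 0.00369). Wide ranges were found for Dao, which encodes the enzyme that degrades D-serine (26.99, 6.47, 0.545 and 0.134 CPM), and for Nos1, the neuronal nitric oxide synthase gene (96.9, 35.9, 3.10 and 4.06 CPM). Srr, which encodes the enzyme that makes the co-agonist D-serine, kept between 42.6 and 49.3 CPM. Srr and the paralogs above are named beyond the naming rule because of their roles.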

How the data were processed

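PolyA RNA of 4 tumours was sequenced. Per the submitters' processing notes the authors used STAR and featureCounts on mm10, and the deposited values are whole-number read counts per gene, with merged exon lengths, for GENCODE vM8. Not given in the sources used here are versions, strand setting and multi-mapping rules. The columns match no single title, so each was taken as a tumour of the group with no replicate number, and 0 columns of sample values were left aside. Symbols matched 46451 of 46946 identifiers.

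Counts were scaled by TMM (edgeR 4.0.16, R 4.3.3; factors 0.971, 1.01, 0.988 and 1.03) to CPM and RPKM. A count of 0 would allow 3 counts, which is 0.122 to 0.134 CPM. Log2 CPM used a prior count of 2 and ratios a pseudocount of 0.1 RPKM. The goodness of fit compared the residual deviance at trended dispersion, after the default low-count filter, with a chi-square distribution on 3 degrees of freedom. For a single group that filter keeps a gene only if its count is high enough in every tumour, so genes near 0 in any tumour were not tested. On simulated data over 14266 genes with 1 library changed it recovered 80% of 8-fold and 100% of 16-fold changes. DESeq2 1.42.0 gave the alternative. Intervals cover counting error only, as reads carry no molecular identifiers.

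The genes, lists and tests were chosen with earlier results of these data known. Named genes were the 10 genes, the 3 nearest profiles of each, the 2 most abundant of each marker list, and of the postsynaptic list Grin3b, the 3 highest by mean RPKM and the 3 widest at mean CPM 5 or more. Some genes that the rule takes are not reported here. Genes outside this rule are named for their place in a family or as exceptions in a marker list, after their values were seen. Upstream windows are from RefSeq, and the windows to print were chosen after the levels were seen. Alternatives were other scaling, filters, dispersion, tool, pseudocounts, lengths and leaving out each tumour.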

Additional observations from a re-analysis of the deposited data

Results flagged for a closer look

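Of 57 sets of 4 values examined (the 10 genes, the 40 other postsynaptic genes and 7 ratios), 5 held a library far from the others by Dixon's ratio (above its 95% critical value), and chance alone marks about 1 in 20. The log2 ratio of Grin3a to Grin1 was 1.66 in TUN and lay between -0.25 and 0.05 in the other tumours (Dixon's ratio 0.843). Homer3 was high in T14 at 139 CPM against 22.1 to 27.8 (0.951). Dlgap2, a scaffold gene, was high in T10 at 5.33 CPM against 0.491 to 1.02 (0.891). Lrrc7, also a postsynaptic scaffold gene, was high in T10 at 13.6 CPM against 9.19 to 9.43 (0.946). Grm5, the metabotropic glutamate receptor gene that Homer proteins bind, was low in T14 at 250 CPM against 340 to 352 (0.878).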

How the results depend on the processing

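As dispersion outliers in DESeq2, 78 genes and 1 of the 10 genes were called, against 619 and 5 by the edgeR goodness of fit. Leaving out each tumour gave 426 to 462 genes and 4 or 5 of the 10, and the other scalings, filters and the common dispersion gave 604 to 722 genes and 4 or 5 of the 10. Grin2a, Grin2c and Dlg2 kept their calls in all 9 edgeR alternatives, Grin1 lost its call in 2 and Grin2b in 4, and no other gene of the 10 gained one. The mean log2 ratio of Grin2d to Grin2b, 2.77, was 1.46 without length correction and 1.27 with a pseudocount of 1. That of Grin2c to Grin2b, 2.84 with an SD of 1.99, was 1.21 and 1.64 under the same changes, and the other 5 ratios also moved by less than their SD. Means of RPKM with a tumour left out were added after the data were seen. The mean of Grin3a over Grin1 (0.36) was -0.08 without TUN, and that of Shank3 over Homer1 (-0.40) lay between -0.85 and -0.07 when a tumour was left out. No paired analysis was possible because there is 1 group and the columns carry no replicate number. The cause of these dependences was not tested.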
